A study of Rattus norvegicus with 9 samples.

Results

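Chemokine ligands are small secreted or membrane-bound proteins that draw leukocytes along a gradient. The 9 genes described here are Ccl2, Ccl5, Ccl7, Ccl20, Cxcl1, Cxcl2, Cxcl12, Cxcl16 and Cx3cl1, chosen by gene symbol among the 34267 genes of the deposited expression table, in which each had 1 row. They were followed in 9 libraries of polyadenylated RNA from wild-type primary cultures of rat cartilage progenitor cells, taken from condylar cartilage. The P9 group held 3 libraries of cells grown to passage 9, the model of replicative senescence in the series. The FFSS group held 3 libraries of cells at passage 3 that were put under flow fluid shear stress, the model of mechanical degeneration, for which neither strength nor duration is given in the sources used here. The P3 group held 3 libraries of passage 3 cells without that exposure and served as control for both. The study asked what replicative senescence and abnormal mechanical stress have in common in these cells.

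Chemokines are grouped by the spacing of their conserved cysteines into CC, CXC and CX3C classes, and they act through G protein-coupled receptors carried mostly by leukocytes. Ccl2, Ccl7, Cxcl1, Cxcl2 and Ccl20 are inflammatory members, known to be switched on by NF-kB after cytokines or injury. Cxcl12 is the homeostatic member, made by stromal cells to hold progenitors in place, while Cxcl16 and Cx3cl1 are made as membrane proteins and shed by proteases. Chemokines also belong to the secretory phenotype known from many senescent cells, and cartilage and synovial cells release them in osteoarthritis.

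Values are FPKM, fragment counts per gene length and sequencing depth, so that levels of different genes can be set side by side. Fold changes are log2 ratios of FPKM + 1 from limma, called at a Benjamini-Hochberg adjusted p under 0.05 over all 13059 genes that reached 1 FPKM in 3 or more libraries, and they understate the change of genes near 1 FPKM. Of the 9 ligands, 6 passed that filter, and all 6 did so in the P3 libraries alone, so none was tested only because it was high in another group. Cx3cl1, Ccl5 and Cxcl2 did not pass. Libraries held 13264930 to 15323790 fragments. Nothing in the labels says that libraries of a group came from separate cultures or animals, so each p measures the spread between these libraries. Across genes, FFSS replicate 1 lay as near to P3 as to its own group (Pearson r of 0.915 and 0.947 with FFSS replicates 2 and 3, and 0.936 to 0.945 with the P3 libraries, a description across genes). Mitochondrial genes took 2.31 to 2.56% of fragments in P9, 2.96 to 3.75% in FFSS and 2.12 to 2.32% in P3.

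The cell label was set beside defining markers. Thy1, a mesenchymal surface marker, had 823 to 1196 FPKM in P9, 1296 to 1437 in FFSS and 824 to 949 in P3, and Sox9, the chondrogenic factor, had 5.01 to 7.997 FPKM in P9, 9.81 to 15.3 in FFSS and 4.06 to 4.79 in P3. Col2a1, the collagen that defines cartilage, was at most 1.06 FPKM in any library. Acan, the cartilage proteoglycan aggrecan, had 499 to 609 FPKM in P9, 29.3 to 48.2 in FFSS and 122 to 135 in P3. Col11a1, a minor cartilage collagen, had 194 to 307 FPKM in P9, 405 to 523 in FFSS and 809 to 918 in P3. The sum of the 10 cartilage markers was 786 to 816 FPKM in P9, 505.0 to 604 in FFSS and 957 to 1072 in P3. Of 12 leukocyte and macrophage markers in the table, Cd3e was at 0 in every library, Ptprc, which marks all leukocytes, was at most 0.0400 FPKM, and the summed level was 6.29 to 7.33 FPKM in P9, 43.0 to 107.8 in FFSS and 10.2 to 12.2 in P3. Most of that sum was Cd14, a lipopolysaccharide coreceptor also made by fibroblasts, at 39.9, 94.3 and 67.5 FPKM in the FFSS libraries. The macrophage genes Lyz2 and Csf1r had 5.36 and 3.17 FPKM in FFSS replicate 2, 2.94 and 2.08 FPKM in FFSS replicate 3, and 0.0562 and 0.0840 FPKM in FFSS replicate 1. Cd68, another macrophage marker, had at least 2.11 FPKM in every FFSS library, at most 0.848 in P9 and at most 0.873 in P3. It rose in FFSS (adjusted p = 0.0078, limma), but passed the filter through FFSS alone, so its rise is a description. Cd14 rose there as well (adjusted p = 0.00062). Fcer1g had 0.742 to 1.31 FPKM in FFSS, overlapping P3 at 0.345 to 0.859. Tyrobp was at 0.797 FPKM in FFSS replicate 2 and at 0 in FFSS replicates 1 and 3. Adgre1 was at 0 in every FFSS library. Cd74 had 0.534 to 1.84 FPKM in P9, at most 0.194 in FFSS and at most 0.146 in P3. Markers of synovium and tendon, mostly Fmod, summed to 63.6 to 231 FPKM in P9, 1706 to 2524 in FFSS and 1139 to 1360 in P3. Markers of muscle, mostly Acta1, summed to 35.6 to 43.2 FPKM in P9, 0.540 to 1.86 in FFSS and 2.70 to 16.3 in P3. Fibroblast markers, with Col1a1 as the largest part, summed to 7147 to 8212 FPKM in P9 and 8313 to 8888 in FFSS, both below every P3 library. The members did not move together. In FFSS, Col1a1 fell (adjusted p = 0.0023, limma), and Pdgfra, Pdgfrb, Thy1 and Eng rose (adjusted p = 0.0065, 0.0073, 0.0253 and 0.0416). Col1a2, Col3a1 and Nt5e did not pass there. In P9, Col1a1 and Eng fell (adjusted p = 0.0039 and 0.0149), and the others did not pass. Endothelial markers stayed under 1 FPKM in sum, with Cdh5, Emcn and Cldn5 at 0 in every library, and epithelial markers summed to 1.32 to 2.13 FPKM in P9, 0.207 to 1.14 in FFSS and 0.243 to 0.558 in P3. The part of these markers in the ligand values was not tested. In bulk RNA, fewer cells making a ligand and less of its RNA per cell cannot be told apart.

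Shear stress raised most chemokine ligands and passage 9 raised none by the test. Against P3, 5 of the 6 tested ligands rose in FFSS (Ccl2, Cxcl1, Ccl7, Ccl20 and Cxcl16) and none fell, where 21.8% of all tested genes were called, 11.4% higher and 10.4% lower. In P9, Cxcl1 and Ccl20 fell and none rose, where 9.83% of all tested genes were called, 5.39% higher and 4.44% lower. At an unadjusted p under 0.05 in limma, 3 ligands were lower in P9 and none was higher, a count with no share over all tested genes beside it. The median log2 fold change of the 6 tested ligands was 3.18 in FFSS, beside -0.01 over all tested genes, and -0.49 in P9, beside -0.0026. Compared directly, 5 of the 6 were lower in P9 than in FFSS, where 31.4% of all tested genes were called, 15.3% lower and 16.1% higher, and the ligands had a median of -4.42. Of all 9 ligands, 7 had every FFSS library above every P3 library and none the reverse, where 20.1% of tested genes were so separated upwards and 22.3% downwards. The same 7 had every P9 library below every FFSS library, where 20% of tested genes lay so below and 22.2% above. The 7 include Cx3cl1 and Cxcl2, which are not among the tested genes of these shares. Between P9 and P3, 3 ligands lay wholly lower and 1 wholly higher, where 19.1% and 20.9% of tested genes did. FFSS and P9 share the P3 libraries as control, so their changes are given side by side only.

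**Figure D1:**
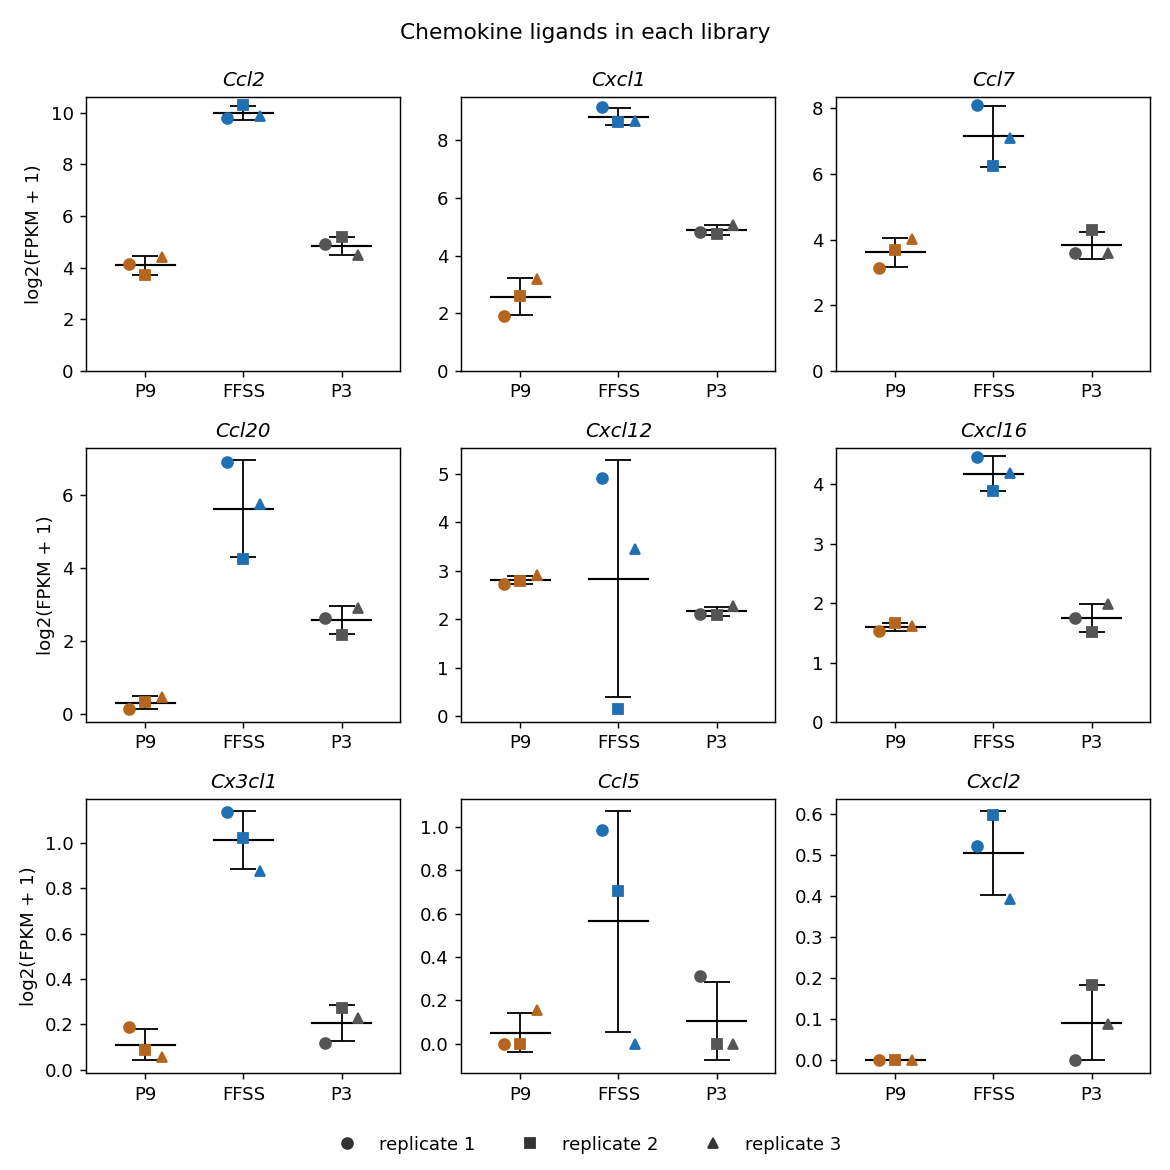
Level of each of the 9 chemokine ligands, as log2(FPKM + 1), in every library of P9, FFSS and P3, with the mean as a bar and the SD as an error bar (n = 3 libraries) and a separate vertical scale per gene. Ccl2, Cxcl1, Ccl7, Ccl20, Cxcl16, Cx3cl1 and Cxcl2 lie higher in all 3 FFSS libraries than in any P3 or P9 library, while for Cxcl12 FFSS replicates 1 and 3 lie above and FFSS replicate 2 below every other library.

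The sum over the 9 ligands differed between the groups, as did the shares within it. It was 35.0, 37.2 and 53.0 FPKM in the P9 libraries, 1906, 1755 and 1567 FPKM in the FFSS libraries, and 78.4, 88.6 and 78.5 FPKM in the P3 libraries, with no overlap between groups. Ccl2 and Cxcl1 together held 45.7 to 55.6% of the sum in P9, 76.7 to 93.8% in FFSS and 68.6 to 71.7% in P3. The share of Cxcl1 alone was 7.93 to 15.4% in P9, 22.6 to 29.9% in FFSS and 29.3 to 41.6% in P3. Ccl7 held more than Cxcl1 in every P9 library, at 22.2 to 31.7%. Cxcl12 held 12.2 to 16.1% of the sum in P9, 0.00577 to 1.53% in FFSS and 3.70 to 4.87% in P3.

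**Figure D2:**
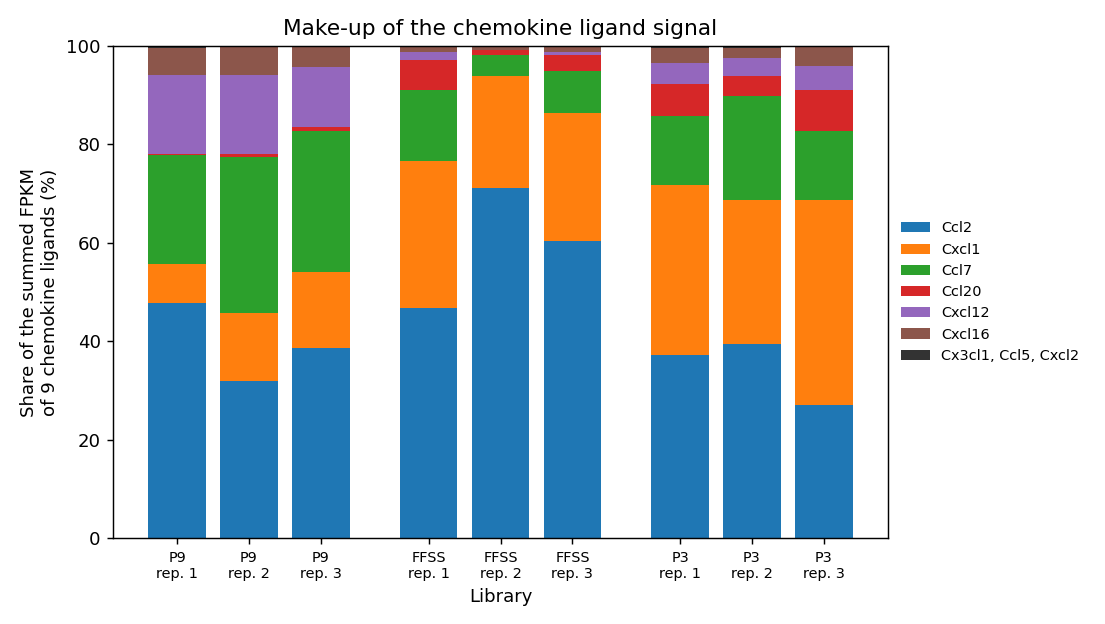
Share of the summed FPKM of the 9 ligands held by each ligand, in percent, for each library of P9, FFSS and P3. Cxcl1 has its smallest shares in P9 (7.93 to 15.4%), where Cxcl12 and Ccl7 take more, and Ccl2 reaches 71.2% in FFSS replicate 2.

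The order of the ligands by mean level differed between the groups. In P9 it ran from Ccl2 through Ccl7, Cxcl12, Cxcl1 and Cxcl16 to Ccl20, in FFSS from Ccl2 through Cxcl1, Ccl7, Ccl20 and Cxcl16 to Cxcl12, and in P3 from Cxcl1 through Ccl2, Ccl7, Ccl20 and Cxcl12 to Cxcl16. Cx3cl1, Ccl5 and Cxcl2 came last in each group. Neighbours whose libraries overlapped were Ccl2 with Ccl7 and Cxcl12 with Cxcl1 in P9, every neighbouring pair from Ccl7 downwards in FFSS, and Cxcl1 with Ccl2 and Ccl20 with Cxcl12 in P3, and Cx3cl1, Ccl5 and Cxcl2 overlapped in turn in all groups, as Ccl20 did with Cx3cl1 in P9.

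Promoters of 4 inflammatory members are shown with that of Cxcl12, which varied between FFSS libraries, because the inflammatory chemokines are textbook NF-kB targets. RefSeq sequences of build GRCr8, running from 250 bases before the start site to 50 after it, were matched by symbol for 7 of the 9 members, all but Ccl2 and Ccl5. Capitals mark matches to the 10-base NF-kB consensus, the AP-1 motif TGANTCA and the TATA motif TATAAA, searched on both strands. The windows are chr14:17479272-17479571 (minus strand), chr14:17467206-17467505 (minus), chr10:67513845-67514144 (plus), chr9:91836909-91837208 (plus) and chr4:152060531-152060830 (plus).
Cxcl1: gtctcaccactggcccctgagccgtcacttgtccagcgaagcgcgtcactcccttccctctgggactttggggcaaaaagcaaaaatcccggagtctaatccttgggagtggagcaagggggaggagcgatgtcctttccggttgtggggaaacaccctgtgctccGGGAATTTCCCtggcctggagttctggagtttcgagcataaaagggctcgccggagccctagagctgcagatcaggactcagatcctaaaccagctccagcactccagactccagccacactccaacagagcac
Cxcl2: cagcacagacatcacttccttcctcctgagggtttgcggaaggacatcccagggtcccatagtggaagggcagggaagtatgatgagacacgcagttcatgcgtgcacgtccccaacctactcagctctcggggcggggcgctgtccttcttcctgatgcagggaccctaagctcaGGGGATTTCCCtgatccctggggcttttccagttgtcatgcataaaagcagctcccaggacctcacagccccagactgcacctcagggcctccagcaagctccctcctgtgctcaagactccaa
Ccl7: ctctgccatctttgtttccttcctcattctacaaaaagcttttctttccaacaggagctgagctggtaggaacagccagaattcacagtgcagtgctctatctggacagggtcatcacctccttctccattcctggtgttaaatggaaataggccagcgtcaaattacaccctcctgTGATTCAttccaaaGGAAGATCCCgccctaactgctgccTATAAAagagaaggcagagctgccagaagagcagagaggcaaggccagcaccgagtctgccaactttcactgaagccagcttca
Ccl20: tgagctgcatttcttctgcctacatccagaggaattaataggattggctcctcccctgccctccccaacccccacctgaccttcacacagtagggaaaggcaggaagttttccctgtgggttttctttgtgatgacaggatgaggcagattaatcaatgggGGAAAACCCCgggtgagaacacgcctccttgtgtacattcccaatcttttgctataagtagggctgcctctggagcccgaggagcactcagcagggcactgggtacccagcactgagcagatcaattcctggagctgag
Cxcl12: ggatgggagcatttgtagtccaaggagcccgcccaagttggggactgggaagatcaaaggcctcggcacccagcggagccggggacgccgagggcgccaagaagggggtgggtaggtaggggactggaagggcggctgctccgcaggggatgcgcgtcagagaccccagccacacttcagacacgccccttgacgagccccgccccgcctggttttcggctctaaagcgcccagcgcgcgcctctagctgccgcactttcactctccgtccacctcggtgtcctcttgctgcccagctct

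An NF-kB match stood in 4 of the 7 promoters, those of Cxcl1, Cxcl2, Ccl7 and Ccl20, where 7.51% of 33469 rat promoters of that length held one. In Cxcl1 it began 84 bases before the start site, as GGGAATTTCC, and overlapped a match on the other strand by all but 1 base. In Cxcl2 it began 74 bases before it, as GGGGATTTCC, and overlapped further matches shifted by 1 base. The Ccl7 match began 59 bases and the Ccl20 match 89 bases before the start site, both on the other strand. The Ccl7 promoter also held TGATTCA (AP-1 motif, 7.33% of promoters) and TATAAA (14.2%), which the Cx3cl1 promoter held too. None of these letters stood in the Cxcl12 or Cxcl16 windows. The interferon response element (3.92% of promoters) and ACGTG (hypoxia response, 19.3%) were searched as well, and 1 match was found, ACGTG on the other strand of the Cxcl2 promoter. A match is a description of letters and not of binding.

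Ccl2 and Ccl7, which attract monocytes, lie next to each other on chromosome 10 with 9215 bases between them (Rnor_6.0, 69412017 to 69413870 and 69423086 to 69424979, both on the plus strand). Ccl2 had 16.7, 11.9 and 20.5 FPKM in P9, 891, 1250.2 and 946 FPKM in FFSS and 29.1, 34.9 and 21.3 FPKM in P3. Every FFSS library was far above every other library, and every P9 library was below every P3 library. The FFSS mean was 36.2 times the P3 mean, a log2 fold change of 5.14 (SE 0.24, adjusted p = 8.8e-06, limma), rank 8 of 13059 genes from the top. In P9 the log2 fold change from P3 was -0.76 (95% confidence interval -1.30 to -0.23), which did not pass (adjusted p = 0.0815). P9 minus FFSS was -5.90 (adjusted p = 2.04e-06).

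Ccl7 had 7.76, 11.8 and 15.2 FPKM in P9, 274, 74.5 and 134 FPKM in FFSS and 10.97, 18.7 and 11.1 FPKM in P3. All FFSS libraries were above the others, P9 and P3 overlapped, and FFSS replicate 1 was 3.68 times FFSS replicate 2, the reverse of their order for Ccl2. The FFSS mean was 11.9 times the P3 mean, or 7.68 times without FFSS replicate 1, with a log2 fold change of 3.32 (SE 0.44, adjusted p = 0.00217). The change in P9 was -0.22 (95% confidence interval -1.21 to 0.78, adjusted p = 0.826), and P9 minus FFSS was -3.53 (adjusted p = 0.000643). The P9 mean was 0.0720 times the FFSS mean, or 0.111 times without FFSS replicate 1. Of the other chemokine genes of the same cluster, Ccl11, which lies 9961 bases beyond Ccl7, was at most 0.145 FPKM in any library, Ccl12 was at 0 in all 9, and Ccl1 had 0.871 FPKM in FFSS replicate 3 and 0 in the others.

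Cxcl1 and Cxcl2, which attract neutrophils through Cxcr2, are also neighbours, on chromosome 14 with 10293 bases between them (Rnor_6.0, 18743685 to 18745457 and 18731378 to 18733391, both on the minus strand). Cxcl1 had 2.77, 5.10 and 8.15 FPKM in P9, 570.2, 396 and 405 FPKM in FFSS and 27.1, 26.0 and 32.6 FPKM in P3. The 3 groups did not overlap in any pairing, with FFSS highest and P9 lowest. The FFSS mean was 16.0 times and the P9 mean 0.187 times the P3 mean. The log2 fold change was 3.94 in FFSS (SE 0.29, adjusted p = 0.000139, rank 13 of 13059 from the top) and -2.31 in P9 (SE 0.29, adjusted p = 0.00176, rank 50 from the bottom). P9 minus FFSS was -6.25 (adjusted p = 3.81e-06), rank 5 from the bottom.

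Cxcl2 was under 1 FPKM in every library. No fragment fell on it in P9, which allows 3 over the group, against 7, 8 and 5 fragments in the FFSS libraries and 0, 2 and 1 in the P3 libraries. These are levels of 0 FPKM in P9, 0.437, 0.512 and 0.314 FPKM in FFSS and 0, 0.135 and 0.0632 FPKM in P3. All FFSS libraries were above all others. The ratio of FFSS to P3 fragments, scaled to library size, was 6.56 (95% counting interval 1.95 to 34.5). With 3 fragments allowed over the P9 group, the level was 6.77-fold lower in P9 than in FFSS. That fold leaves out the counting error of the FFSS fragments. The ratio of the FFSS and P3 means was 6.36, and 13.3 without P3 replicate 2. Cxcl2 had no main test, and without a filter on low values its log2 fold change in FFSS was 0.41 (adjusted p = 0.011, limma).

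Further chemokine genes of the chromosome 14 cluster are given here, chosen after their values were seen. Cxcl6, a neutrophil attractant 114806 bases from Cxcl1, had 0 FPKM in all P9 libraries, 92.4, 0.549 and 36.1 FPKM in FFSS and 0.244, 0.0447 and 0.334 FPKM in P3. Cxcl3, a close relative of Cxcl1, had 0, 0 and 0.169 FPKM in P9, 6.43, 0.421 and 2.62 FPKM in FFSS and 0.541, 0.495 and 0.416 FPKM in P3. Both were high in FFSS replicates 1 and 3 and near the P3 level in FFSS replicate 2, so that only Cxcl6 kept every FFSS library above P3. Pf4, platelet factor 4, went another way, with 0 FPKM in all P9 libraries, 0, 1.73 and 0.846 FPKM in FFSS and 0, 0 and 0.213 FPKM in P3, and Ppbp was at 0 in all 9. None of these reached 1 FPKM in 3 libraries, and none was tested. Close relatives in this cluster could share fragments, and how such fragments were counted is not given in the sources used here.

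Ccl20, the ligand of Ccr6 on helper T cells and dendritic cells (chromosome 9, 88918433 to 88921001, plus strand, Rnor_6.0), had the lowest level relative to P3 of any tested member in P9. It had 0.0932, 0.25 and 0.393 FPKM in P9, 117, 17.9 and 52.3 FPKM in FFSS and 5.21, 3.50 and 6.54 FPKM in P3. The groups did not overlap, and the FFSS libraries spanned 6.56 times. The FFSS mean was 12.3 times the P3 mean, or 6.90 times without FFSS replicate 1, with a log2 fold change of 3.05 (SE 0.55, adjusted p = 0.00694). In P9, 9 fragments were found in all, against 176 in P3, a ratio scaled to library size of 0.0496 (95% counting interval 0.0223 to 0.0963). The P9 log2 fold change of -2.26 passed with all libraries (SE 0.55, adjusted p = 0.0326) and did not pass without P9 replicate 1 (adjusted p = 0.111), 2 (0.108) or 3 (0.0786), P3 replicate 1 (0.108), 2 (0.0614) or 3 (0.123), or FFSS replicate 3 (0.0546). Of 17 alternatives, 8 kept this P9 call and 9 lost it. It was kept without FFSS replicate 1 (adjusted p = 0.00383, limma) or 2 (0.00275) and in the fit of the 6 P9 and P3 libraries (0.000896). The fit over all 9 libraries has a shared spread that includes FFSS. The SD of the Ccl20 log2 value was 1.33 in FFSS, 0.175 in P9 and 0.376 in P3. P9 minus FFSS was -5.31 (adjusted p = 0.000235). The P9 mean was 0.00393 times the FFSS mean, or 0.00699 times without FFSS replicate 1.

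Cxcl16 and Cx3cl1 are the membrane-bound ligands, of Cxcr6 and Cx3cr1. Cxcl16 (chromosome 10, 57060007 to 57064600, minus strand) had 1.89, 2.15 and 2.07 FPKM in P9, 21.1, 13.8 and 17.4 FPKM in FFSS and 2.37, 1.87 and 2.94 FPKM in P3. All FFSS libraries were above the others, and P9 and P3 overlapped. The FFSS mean was 7.27 times the P3 mean, with a log2 fold change of 2.43 (SE 0.18, adjusted p = 0.000139). The change in P9 was -0.15 (95% confidence interval -0.55 to 0.26, adjusted p = 0.69), and P9 minus FFSS was -2.58 (adjusted p = 3.16e-05).

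Cx3cl1, or fractalkine (chromosome 19, 10644244 to 10653800, minus strand), had 0.141, 0.0629 and 0.0396 FPKM in P9, 1.198, 1.03 and 0.839 FPKM in FFSS and 0.0846, 0.209 and 0.173 FPKM in P3. All FFSS libraries were above the others, on 142 fragments in FFSS against 21 in P3 and 11 in P9. The ratio of FFSS to P3 fragments was 6.65 (95% counting interval 4.19 to 11.1). Without a filter its log2 fold change in FFSS was 0.81 (adjusted p = 0.00295, limma). Adam17, a protease that sheds both of these ligands, rose to 44.3, 29.3 and 32.6 FPKM in FFSS, against 20.1, 19.5 and 21.3 FPKM in P3 (log2 fold change 0.76, adjusted p = 0.0129, 0.0528 without P3 replicate 1 and 0.0526 without P3 replicate 2).

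Ccl5, which attracts T cells and monocytes, was barely detected. It had 0, 0 and 1 fragments in P9, 8, 5 and 0 in FFSS and 2, 0 and 0 in P3, on a gene of 545 bases (chromosome 10, 70739800 to 70744315, minus strand). The groups overlapped at 0. The ratio of FFSS to P3 fragments was 6.40 (95% counting interval 1.45 to 58.4), and the ratio of mean FPKM was 6.64, and 3.89 without FFSS replicate 1. The counting interval covers the 2 sums of fragments and not the spread between libraries. Without a filter, Ccl5 did not pass in FFSS (log2 fold change 0.46, adjusted p = 0.236).

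Cxcl12, the stromal ligand of Cxcr4 (chromosome 4, 149261044 to 149273891, plus strand), followed another pattern. It had 5.62, 5.94 and 6.49 FPKM in P9, 29.3, 0.101 and 9.90 FPKM in FFSS and 3.33, 3.28 and 3.82 FPKM in P3. All P9 libraries were above all P3 libraries, while FFSS replicate 1 was 289 times FFSS replicate 2, on 2372, 8 and 798 fragments in FFSS replicates 1 to 3. The SD of its log2 value was 2.45 among FFSS libraries, beside 0.0898 in P9, 0.0954 in P3 and a median of 0.268 over all tested genes in FFSS. The log2 fold change in FFSS was 0.67 (95% confidence interval -1.48 to 2.83, adjusted p = 0.641). It was 2.02 without FFSS replicate 2 (adjusted p = 0.01) and -0.37 without FFSS replicate 1 (adjusted p = 0.731). The ratio of the FFSS and P3 means was 3.76, and 1.44 without FFSS replicate 1.

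In P9, the Cxcl12 mean was 1.73 times the P3 mean, a log2 fold change of 0.65 (95% confidence interval -1.51 to 2.81). It did not pass in the fit over all 9 libraries, whose shared spread includes FFSS (adjusted p = 0.752), and passed in a fit of the P9 and P3 libraries alone (adjusted p = 0.00608). P9 minus FFSS was -0.03 (95% confidence interval -2.18 to 2.13, adjusted p = 0.985) and -1.37 without FFSS replicate 2 (adjusted p = 0.0255). The ratio of the P9 and FFSS means was 0.46, and 1.203 without FFSS replicate 1.

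**Figure D3:**
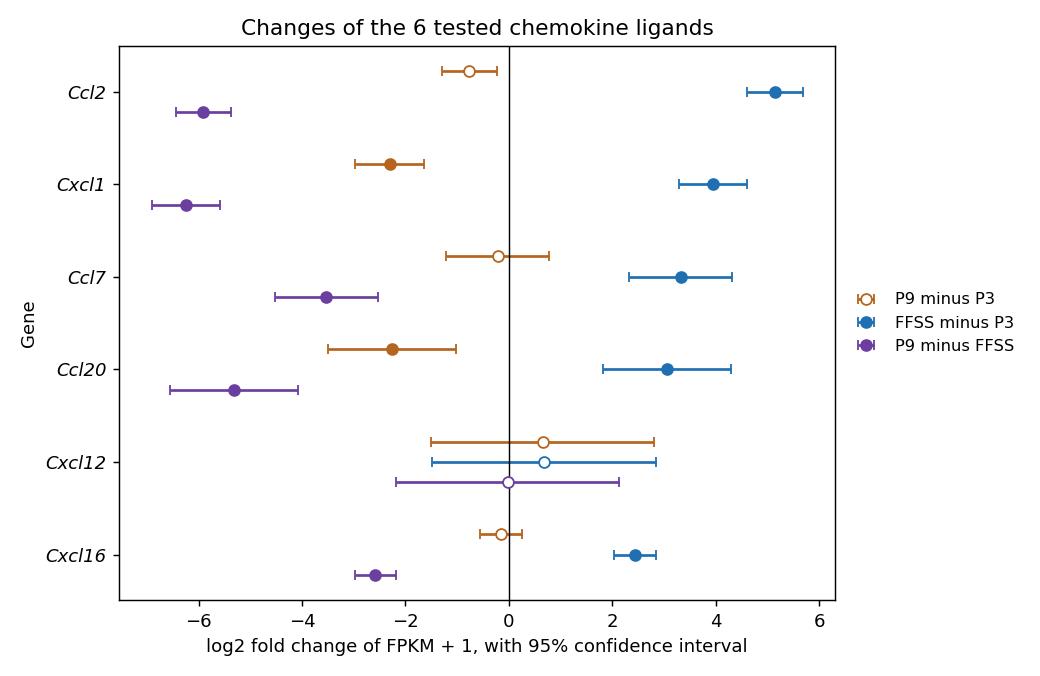
Log2 fold change of FPKM + 1 with its 95% confidence interval for the 6 ligands that passed the filter, in each of the 3 comparisons. Filled points passed an adjusted p under 0.05: 5 ligands lie right of 0 in FFSS minus P3, Cxcl1 and Ccl20 lie left of 0 in P9 minus P3, and the intervals of Cxcl12 all span 0.

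The ligands differed in which FFSS library was highest. Cxcl1, Ccl7, Ccl20, Cxcl12, Cxcl16, Cx3cl1 and Ccl5 were highest in FFSS replicate 1, the FFSS library nearest to P3 across genes, and Ccl2 and Cxcl2 in FFSS replicate 2. Between the highest and lowest FFSS library, Ccl2, Cxcl1 and Cxcl16 spanned 1.40, 1.44 and 1.53 times, Ccl7 and Ccl20 spanned 3.68 and 6.56 times, and Cxcl12 spanned 289 times. In P9 and P3 the widest span among the tested ligands was that of Ccl20 in P9, 4.22 times on 1 to 5 fragments.

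For each tested ligand, the pair of genes with the most alike profile was found by the root-mean-square difference of centred log2(FPKM + 1) over the 9 libraries, a description with no test. Nearest to Ccl2 were Fos, an AP-1 subunit (0.53), and Mt2A, a metallothionein (0.59). Nearest to Cxcl1 were Angptl4, a secreted inhibitor of lipoprotein lipase (0.35), and again Mt2A (0.50). Nearest to Ccl7 were Sod2, the mitochondrial superoxide dismutase (0.40), and Mt1 (0.41), and nearest to Ccl20 were C1s, a complement protease (0.34), and Angpt1, an angiopoietin (0.38). Cxcl16 lay closest to Csgalnact1, an enzyme of chondroitin sulfate synthesis (0.11), and to Tnfaip3, the NF-kB inhibitor A20 (0.20). Cxcl12 lay closest to Glrx, a glutaredoxin (0.47), and Kif26b, a kinesin family member (0.54). Glrx had 36.1, 32.5 and 24.95 FPKM in P9, 85.8, 6.43 and 29.3 FPKM in FFSS and 12.5, 9.67 and 15.1 FPKM in P3, low in FFSS replicate 2 like Cxcl12.

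Of 27 other chemokine ligands of the rat, 10 were at 0 in every library and 3 passed the filter. Cxcl10, a target of interferon signalling, had 0.0646, 0.289 and 0.218 FPKM in P9, 3.89, 1.82 and 1.54 FPKM in FFSS and 0.233, 0.256 and 0.239 FPKM in P3. It passed the filter through the FFSS libraries alone, so its log2 fold change of 1.40 in FFSS (adjusted p = 0.0072) is given as a description. Cxcl14 had 0 FPKM in all P9 libraries, 2.03, 1.75 and 1.17 FPKM in FFSS and 0.615, 0.540 and 1.26 FPKM in P3, and passed the filter through FFSS. Its fall in P9 (log2 fold change -0.83, adjusted p = 0.0411) was lost without any 1 of the P9 or P3 libraries (adjusted p = 0.0615 to 0.155) and with the replicate block (adjusted p = 0.093). Cxcl13, an attractant of B cells, did not pass in P9 (log2 fold change -1.26, adjusted p = 0.0848, 0.0359 without FFSS replicate 1 and 0.0301 without P3 replicate 2) or in FFSS (0.60, adjusted p = 0.304). In P9 minus FFSS, all 3 were negative (log2 differences of -1.46, -1.39 and -1.86 for Cxcl10, Cxcl14 and Cxcl13). Cxcl13 too needed FFSS libraries to pass the filter. The filter therefore favoured a lower P9 for all 3, and these differences are given as a description.

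Of 17 signalling chemokine receptors in the table, 7 were at 0 in every library, 9 were detected but under 1 FPKM in all, and 1 passed the filter, Cxcr4, the receptor of Cxcl12. Among the low ones, Cxcr3, the receptor of Cxcl10, named after its values were seen, had 0, 0 and 0.0372 FPKM in P9, 0.483, 0.578 and 0.728 FPKM in FFSS and 0.0398, 0.131 and 0.122 FPKM in P3. Without a filter, 2 signalling receptors were called higher in FFSS and none lower, where 1298 of 21968 genes were called higher and 1067 lower. Cxcr4 had 2.22, 2.14 and 1.77 FPKM in P9, 3.14, 2.04 and 2.31 FPKM in FFSS and 6.43, 11.5 and 3.60 FPKM in P3. All P9 and FFSS libraries were below all P3 libraries. Its log2 fold change was -1.31 in P9 (adjusted p = 0.0324) and -1.12 in FFSS (adjusted p = 0.0355). The call in P9 was lost without P9 replicate 1 (adjusted p = 0.0893), 2 (0.105) or 3 (0.0998), P3 replicate 1 (0.105) or 2 (0.0635), or FFSS replicate 3 (0.0539). The call in FFSS was lost without P9 replicate 2 (adjusted p = 0.0558) or 3 (0.0521), FFSS replicate 2 (0.092) or 3 (0.101), or P3 replicate 1 (0.0972) or 2 (0.0879). Without a filter on low values neither Cxcr4 call passed (adjusted p = 0.0702 in P9 and 0.073 in FFSS), and the FFSS call was lost in the fit of 6 libraries (0.0782).

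Atypical receptors bind chemokines without G protein signalling and clear them. Ackr3, which takes up Cxcl12, had 38.9, 35.9 and 34.5 FPKM in P9, 31.3, 10.7 and 18.0 FPKM in FFSS and 13.1, 23.3 and 8.22 FPKM in P3. All P9 libraries were above all P3 and FFSS libraries, yet P9 minus P3 did not pass (log2 fold change 1.35, adjusted p = 0.0723), and it passed without FFSS replicate 1 (0.0244), FFSS replicate 2 (0.0351) or P3 replicate 2 (0.0366), and in the fit of the 6 P9 and P3 libraries (0.0257). Ackr4, which clears other CC chemokines, had 0.618, 0.325 and 1.29 FPKM in P9, 17.2, 3.41 and 7.68 FPKM in FFSS and 3.21, 3.85 and 3.29 FPKM in P3. It was lower in P9 than in FFSS (log2 difference -2.38, adjusted p = 0.0044). Against P3 its P9 change was -1.39 (adjusted p = 0.0902, or 0.0117 when FFSS replicate 1 and 0.0195 when FFSS replicate 2 was left out, and 0.0052 in the fit of 6 libraries) and its FFSS change was 0.996 (adjusted p = 0.135, 0.0218 without FFSS replicate 2).

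**Figure D4:**
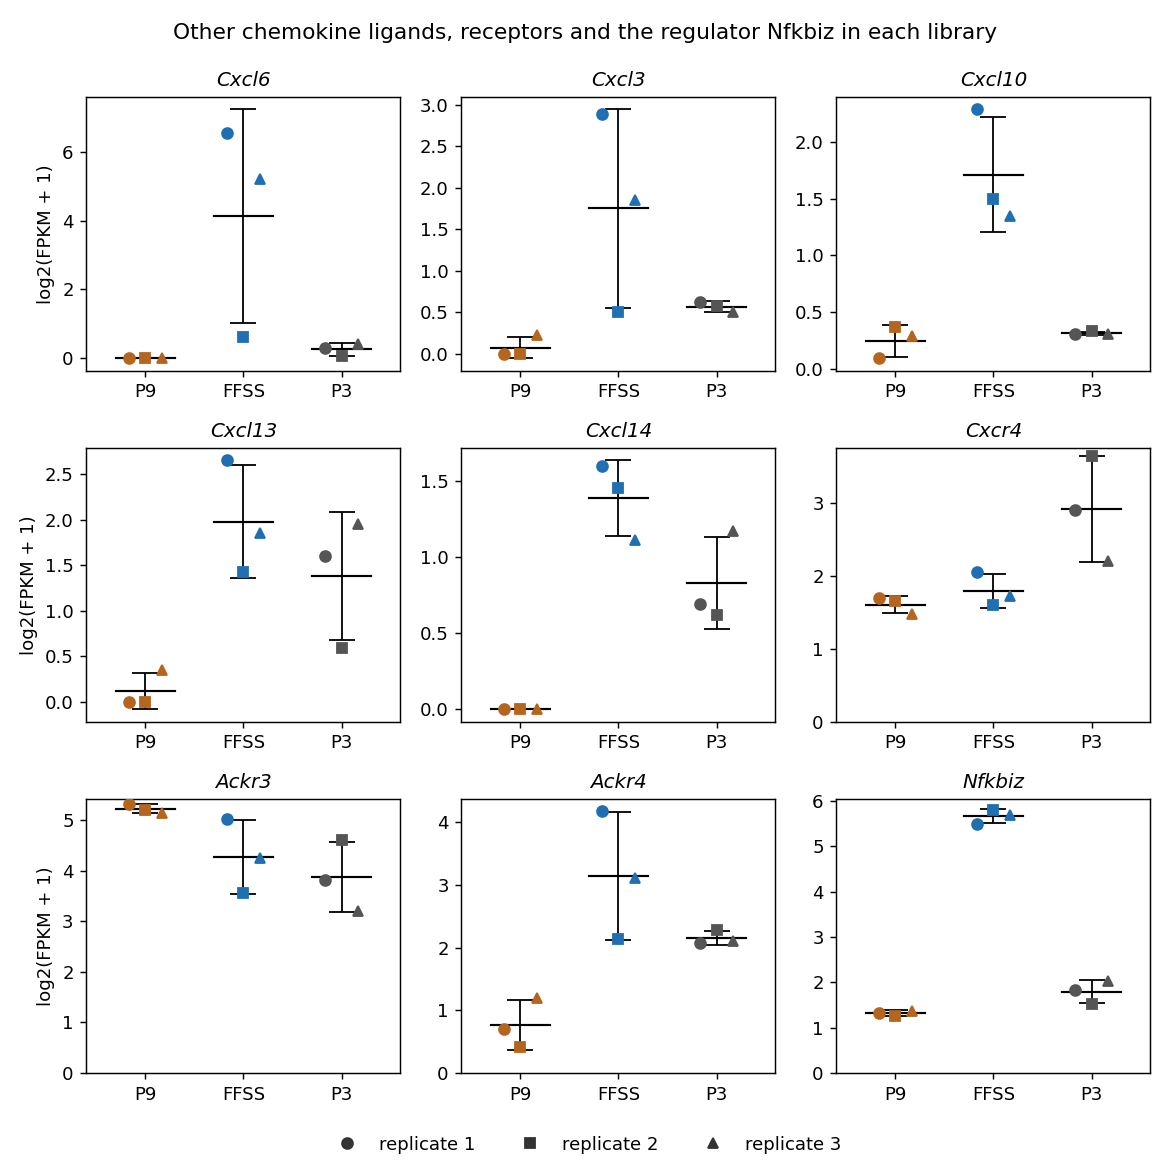
Level as log2(FPKM + 1) in every library of P9, FFSS and P3, with the mean as a bar and the SD as an error bar (n = 3 libraries), for 5 other chemokine ligands, 3 receptors and Nfkbiz, with a separate vertical scale per gene. Cxcl6 and Cxcl3 are near the P3 level in FFSS replicate 2 and high in the other FFSS libraries, Ackr3 is highest in P9, and Cxcr4 is highest in P3.

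Genes of NF-kB, the factor family behind many chemokine promoters, rose together in FFSS. Of 15 factors and inhibitors, 13 rose in FFSS and none fell, where 11.4% of all tested genes rose, with a median log2 fold change of 0.86, beside -0.01 over all tested genes. Of the 13, 7 changed by at least 1 on the log2 scale. The 13 include Bcl3, which passed the filter only with its FFSS libraries, so its rise is a description. Bcl3 had 0, 0 and 0.0657 FPKM in P9, 4.65, 3.02 and 2.89 FPKM in FFSS and 0.982, 0.462 and 1.26 FPKM in P3. The rises numbered 9 without FFSS replicate 3 or P3 replicate 1 and 10 without P3 replicate 2 or 3. Nfkbiz, a nuclear inhibitor of kappa B protein that acts as a co-activator, had 1.502, 1.38 and 1.59 FPKM in P9, 44.2, 55.0 and 50.8 FPKM in FFSS and 2.56, 1.88 and 3.06 FPKM in P3. Its log2 fold change in FFSS was 3.87 (adjusted p = 4.57e-06), that of the inhibitor Nfkbia was 3.04 (adjusted p = 4.57e-06), and that of Tnfaip3 was 2.52. Rel (1.31), Nfkbib (0.86), Nfkb1 (0.79), Nfkbie (0.75), Nfkb2 (0.67), Traf3 (0.55) and Rela (0.42) passed as well. The calls of Nfkb2, Traf3 and Rela were lost without FFSS replicate 3 (adjusted p = 0.124, 0.0885 and 0.0542) or P3 replicate 1 (0.113, 0.095 and 0.0528), among others. Relb and Bcl3 fell in P9 and none rose. The Relb change there was -0.88 (adjusted p = 0.0070), and the Bcl3 change of -0.87 (adjusted p = 0.039) was lost without any 1 of P9 replicates 1, 2 and 3, P3 replicates 1 and 3 and FFSS replicate 3 (adjusted p = 0.0557 to 0.154), with the replicate block (0.0627) and without a filter (0.0555).

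Of 6 proteins that act on the stability of chemokine messenger RNA, 5 hasten its decay and Elavl1 stabilises it. Zc3h12a, the endonuclease regnase, had 3.50, 4.17 and 3.72 FPKM in P9, 62.6, 57.0 and 58.1 FPKM in FFSS and 5.95, 5.30 and 5.52 FPKM in P3 (log2 fold change in FFSS 3.19, adjusted p = 3.04e-06). Zfp36 (2.89, adjusted p = 0.0118, at 26.2, 196 and 121 FPKM in FFSS) and Zfp36l1 (1.46, adjusted p = 0.0011) rose in FFSS as well, so that 3 of the 6 rose, where 11.4% of all tested genes did. The Elavl1 change there was -0.31 (adjusted p = 0.0724). Khsrp fell there (-0.88, adjusted p = 0.0224), a call lost without FFSS replicate 2 (adjusted p = 0.0631) or 3 (0.0691) or P3 replicate 1 (0.0572), 2 (0.0776) or 3 (0.0735). Zc3h12a was lower in P9 than in P3 (-0.46, adjusted p = 0.0274), a call lost with the replicate block (adjusted p = 0.0754), without any 1 of the P9 or P3 libraries (0.0567 to 0.135) and without FFSS replicate 3 (0.0516).

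Among the cytokines that can induce these ligands, Il6 rose in FFSS, to 12.6, 18.9 and 12.6 FPKM, against 1.14, 2.01 and 1.04 FPKM in P3 (log2 fold change 2.71, adjusted p = 0.0005), while Tnfrsf1a and Ifngr1, receptors of tumour necrosis factor and interferon gamma, rose by 0.63 and 1.0 on the log2 scale (adjusted p = 0.0161 and 0.0017). Other cytokines of the list were not tested: Tnf, Il1a, Il1b and Il17a were at most 0.0409, 0.421, 0.287 and 0.0585 FPKM, and Ifng was at 0 in every library. Of 9 tested cytokines and receptors, 3 rose in FFSS (Il6, Tnfrsf1a and Ifngr1) and none fell, where 11.4% of all tested genes rose. In P9 none passed by limma or voom, where 9.83% of all tested genes did. At an unadjusted p under 0.05 in limma, 3 were higher and 2 lower in P9, again with no share over all tested genes beside it. The fit of 6 libraries called 2 higher and 2 lower, where it called 1379 of 12405 genes higher and 1087 lower. Il1rap, a co-receptor of interleukin-1, had 13.7, 10.8 and 6.54 FPKM in P9, 4.45, 1.496 and 2.28 FPKM in FFSS and 3.72, 5.28 and 3.61 FPKM in P3, and was higher in P9 than in FFSS (log2 difference 1.62, adjusted p = 0.0060). The call of Tnfrsf1a was lost without FFSS replicate 3 (adjusted p = 0.0605) or P3 replicate 1 (0.0651) or 2 (0.0661). Among 5 tested proteases that trim or shed chemokines, Adam17 and Mmp2 rose in FFSS and none fell, where 11.4% of all tested genes rose. Mmp2 rose to 1999.9, 1539 and 1648 FPKM, against 671, 599 and 703 FPKM in P3 (log2 fold change 1.39, adjusted p = 0.0007). Mmp9 and Mmp14 did not pass there, at -0.01 (adjusted p = 0.987) and 0.02 (0.962) on the log2 scale. Dpp4, a listed protease that was too low to be tested, lay below every P3 library in all P9 and FFSS libraries. It had 0, 0.0135 and 0.0763 FPKM in P9, 0, 0.169 and 0.221 FPKM in FFSS and 0.720, 0.760 and 0.655 FPKM in P3.

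Heparan sulfate proteoglycans hold chemokines at cell surfaces, and enzymes that make heparan sulfate were listed with them. Of these 13 genes, 3 rose and 2 fell in FFSS, where 11.4% of all tested genes rose and 10.4% fell. In P9, 2 rose and 1 fell, where 5.39% rose and 4.44% fell. The counts of falls are near those shares. Sdc3 (log2 fold change -1.29, adjusted p = 0.0073, limma) and Gpc6 (-0.51, adjusted p = 0.0486) were the falls in FFSS. The Gpc6 call was lost with a pseudocount of 0.1 (adjusted p = 0.0506) and without P3 replicate 1 (0.128), among others. The 3 rises in FFSS include Ndst2, which was tested only through its FFSS libraries, so that count is a description. With 1 library left out, the rises in FFSS numbered 1 to 4. Sdc4, a syndecan, rose in FFSS (128, 226 and 171 FPKM, against 62.2, 60.9 and 74.1 FPKM in P3, adjusted p = 0.0052). Sdc2, another syndecan, rose by 0.78 on the log2 scale there (adjusted p = 0.0256), a call lost without FFSS replicate 2 (0.0532) or 3 (0.0827), without P3 replicate 1 (0.0833), 2 (0.0741) or 3 (0.0766), without a filter (0.0507) and in the fit of 6 libraries (0.0552). Ndst2, an enzyme of heparan sulfate sulfation, had 0.107, 0.384 and 0.326 FPKM in P9, 2.05, 2.85 and 3.01 FPKM in FFSS and 0.193, 0.891 and 0.357 FPKM in P3, and passed the filter through FFSS alone. The glypican Gpc4 (log2 fold change 1.07, adjusted p = 0.0037) and the sulfotransferase gene Hs2st1 (0.90, adjusted p = 0.0115) rose in P9, the second call being lost without P9 replicate 2 (0.054) or P3 replicate 3 (0.0541). Gpc1, a glypican, fell in P9 (65.8, 105 and 162 FPKM, against 718, 587 and 825 FPKM in P3, log2 fold change -2.75, adjusted p = 0.0011). Among 6 tested regulators of hypoxia and of Cxcl12, Hif1a, the oxygen-sensitive factor, rose in FFSS (53.1, 60.4 and 62.0 FPKM, against 24.8, 27.3 and 26.1 FPKM in P3, log2 fold change 1.13, adjusted p = 0.0017). Its relative Epas1 had 4.07, 3.21 and 1.98 FPKM in P9, 24.7, 1.49 and 9.30 FPKM in FFSS and 1.11, 1.16 and 1.27 FPKM in P3, with the FFSS libraries in the same order as for Cxcl12. Its change in FFSS did not pass (adjusted p = 0.0668), and it passed without FFSS replicate 2 (0.0035). Foxc1 and Ebf1, factors that act on Cxcl12 in marrow stroma, did not pass in FFSS (0.40 and 0.51, adjusted p = 0.105 and 0.132), and Ebf1 passed without FFSS replicate 2 (0.0409).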

How the data were processed

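RNA was measured in 9 libraries, 3 each of P9, FFSS and P3. Per the submitters' processing notes, HISAT2 2.0.5, featureCounts 1.5.0-p3 and build Rnor_6.0 were used. Their settings, strandedness and annotation release are not given in the sources used here. The deposited values are FPKM per gene and library. FPKM times gene length gave whole multiples of 1 step per library for 100% of values (tolerance 0.01 of a step), which gave the fragments per gene. The step matched median-of-ratios size factors, so the authors' FPKM carry that scaling. At a length of 1 kilobase, 1 fragment is 0.0619 to 0.0733 FPKM, and 0 fragments allow 3. Intervals cover counting error only, and floors cover only that of the group with 0 fragments.

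Genes that reached 1 FPKM in 3 or more libraries were fitted as log2(FPKM + 1) with limma 3.58.1 (R 4.3.3), group means over all 9 libraries, a trend in the spread, 6 residual and 2.93 prior degrees of freedom, two-sided, with Benjamini-Hochberg adjustment over 13059 genes. The fit was checked on simulated data. The ligands and all gene lists were chosen with earlier results of these data known. Named beside the ligands were up to 4 genes per list with the smallest adjusted p, those called in at least 2 contrasts, and the 2 most alike genes per ligand (profile SD of at least 0.5), with summaries for the rest. Alternatives were a pseudocount of 0.1, no filter, a filter of at least 5 FPKM, library totals, a replicate block, the 6 libraries of each comparison, voom (limma) on the recovered fragments, a log2 fold of at least 1, and leaving out each library. Counting intervals are exact (SciPy 1.17.1). Promoters came from RefSeq (GRCr8) and gene coordinates from the deposited table. Protein sequences were not used here.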

Additional observations from a re-analysis of the deposited data

Results flagged for a closer look

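The effects of passage 9 and of shear stress on 5 ligands differed by the direct test of P9 against FFSS, which compares both changes from P3 (limma, Benjamini-Hochberg adjustment). The log2 difference, passage minus shear stress, was -5.90 for Ccl2 (adjusted p = 2.04e-06) and -6.25 for Cxcl1 (adjusted p = 3.81e-06). It was -5.31 for Ccl20 (adjusted p = 0.000235), -3.53 for Ccl7 (adjusted p = 0.000643) and -2.58 for Cxcl16 (adjusted p = 3.16e-05). In each case all 3 P9 libraries were below all 3 FFSS libraries.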

How the results depend on the processing

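Under 17 alternatives, the rises of Ccl2, Cxcl1, Ccl7, Ccl20 and Cxcl16 in FFSS kept their direction and passed in each, with the highest adjusted p at 0.0328 for Ccl20, and so did their lower levels in P9 than in FFSS (highest 0.0183). Ligands called in FFSS numbered 5 to 7, with Cx3cl1 and Cxcl2 added without a filter. Ligands called in P9 against P3 numbered 2, but 1 without a filter and 1 with voom, and 1 to 2 with 1 library left out, since Ccl20 lost its call (adjusted p = 0.0696 without a filter and 0.267 with voom). They numbered 3 in the fit of 6 libraries, which added Cxcl12. The cause was not tested. Cxcl12 turned its sign in P9 minus FFSS with a pseudocount of 0.1 (0.65), library totals (0.0016) and voom (0.91), and in FFSS minus P3 with voom (-0.12). With 1 library left out, it ranged from -1.37 to 1.02 in P9 minus FFSS and from -0.37 to 2.02 in FFSS minus P3, and Ccl7 ranged from -0.42 to 0.024 in P9 minus P3. Voom called 1295 genes in P9 and 2825 in FFSS, against 1284 and 2845 by the main test. Over the 17 alternatives these counts moved more widely. In P9 they ran from 589 (without P9 replicate 2) to 2466 (fit of 6 libraries). In FFSS they ran from 1042 (log2 fold of at least 1) to 5022 (without FFSS replicate 1). Replicate numbers did not pair the libraries (r of deviations -0.0408 to 0.0331 between same-numbered libraries), and with the replicate block 2 ligands were called in P9, 5 in FFSS and 5 in P9 against FFSS. Cx3cl1, Ccl5 and Cxcl2 are limited by depth.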
